A study of Mus musculus with 12 samples.

Results

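The genes described here are 35 genes of glycolysis and of the response to low oxygen, chosen by name. They comprise 4 transporters of glucose and lactate, 19 glycolytic enzymes, 3 enzymes that regulate the pathway and 9 other targets of the hypoxia response. On the array 34 of the 35 were found by gene name, among 27677 genes in all, and Gapdh was not analysed here. They had 59 probes on 86 spots, and each gene is represented by its brightest probe. Those 34 probes were well above background on all 12 arrays, so none of the 34 was lost to the filter on dim genes that left 21211 genes to test.

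Glycolysis splits glucose into pyruvate with a net gain of ATP. Glucose enters the cell through transporters, a hexokinase traps it as glucose phosphate, and phosphofructokinase makes the committed step. Pyruvate is either reduced to lactate and exported or passed to the mitochondrion, where pyruvate dehydrogenase takes it on. When oxygen is low, the alpha subunit of hypoxia-inducible factor (HIF) escapes the prolyl hydroxylases that mark it for destruction, and HIF then raises many glycolytic genes together with genes of blood vessel growth, mitochondrial clearance and collagen modification. Pluripotent mouse cells are known for high glycolytic flux in air, and several of these genes also answer to growth factor and stress signalling.

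The RNA came from mouse embryonic stem (ES) cells, with 12 one-colour arrays in all and 1 for each combination of cell line, arm and day. Cells of the serum-free arm, labelled 2i condition, grew in B27N2 medium, and samples were taken at days 0, 3 and 10. In the FBS arm cells grew in DMEM with 15% fetal bovine serum and were sampled at the same days. In each arm one array came from the Stella-GFP line and one from the Dazl-GFP line at each day, both being GFP reporter lines named after germ cell genes. All cultures contained leukemia inhibitory factor and irradiated mouse embryonic fibroblasts as feeder cells. Inhibitors named for 2i are PD0325901, which blocks MEK, at 1 µM and Kenpaullone, which blocks GSK3β, at 5 µM. Whether FBS cells of days 3 and 10 were also given them is not stated, and neither is the treatment of serum-free cells before day 0.

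Across arrays 64.0% to 74.4% of spots lay well above background, and the 75th percentile of signal ranged from 454 to 947 intensity units. A level below is the log2 signal of a gene's probe minus the log2 of that percentile on the same array. Differences are limma fits to all 12 arrays with cell line as a block, and p-values are adjusted by Benjamini and Hochberg over all 21211 genes, at a threshold of 0.05. With 1 array per line and group, the number of arrays limits the precision, and a p-value reflects no more than the spread among these samples, since each group is 1 array of each of 2 lines. All 9 ES cell markers tested were well above background on all 12 arrays, with summed levels of 379 to 676 times the array's 75th percentile. All 18 fibroblast markers of the feeder list were tested, and their summed level in the same unit was 52.0 to 59.3 in the serum-free arm at day 0, 38.0 to 44.4 at day 3 and 40.1 to 62.2 at day 10, against 61.6 to 64.5, 82.1 to 137 and 62.7 to 83.3 in the FBS arm. In such bulk samples fewer cells of a type and less RNA per cell cannot be told apart.

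The promoters of the genes on which the results turn most are shown first, with the core of the HIF binding site in capitals, because HIF is known to act on many genes of this pathway. Sequences are those of RefSeq on the mouse build GRCm38.p6, from 250 bases before to 50 bases after an annotated start. They run 5′ to 3′ along the gene's strand. Capitals mark ACGTG or GCGTG on either strand, and a palindromic CACGTG counts as 2 overlapping matches. Ldha, which passed the test in no comparison, is included for contrast.
Vegfa, chr17:46032328-46032627, minus strand: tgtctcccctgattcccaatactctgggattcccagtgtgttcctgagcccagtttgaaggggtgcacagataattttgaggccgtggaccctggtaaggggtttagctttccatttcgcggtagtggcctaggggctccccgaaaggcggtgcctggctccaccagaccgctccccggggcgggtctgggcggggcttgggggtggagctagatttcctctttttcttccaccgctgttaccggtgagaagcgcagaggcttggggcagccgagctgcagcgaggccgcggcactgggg
Vegfa, start inside the gene, chr17:46025114-46025413, minus strand: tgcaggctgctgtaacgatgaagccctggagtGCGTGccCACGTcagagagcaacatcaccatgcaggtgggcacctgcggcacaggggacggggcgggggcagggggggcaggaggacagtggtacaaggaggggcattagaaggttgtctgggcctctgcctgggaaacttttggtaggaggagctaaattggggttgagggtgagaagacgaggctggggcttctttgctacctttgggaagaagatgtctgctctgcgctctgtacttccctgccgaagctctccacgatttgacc
Adm, chr7:110627407-110627706, plus strand: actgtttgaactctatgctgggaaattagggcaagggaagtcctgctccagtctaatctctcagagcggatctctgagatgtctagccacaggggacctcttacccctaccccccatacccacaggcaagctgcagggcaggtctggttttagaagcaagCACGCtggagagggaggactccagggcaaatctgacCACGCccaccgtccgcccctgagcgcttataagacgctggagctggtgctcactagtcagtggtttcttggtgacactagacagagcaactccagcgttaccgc
Hkdc1, chr10:62422408-62422707, minus strand: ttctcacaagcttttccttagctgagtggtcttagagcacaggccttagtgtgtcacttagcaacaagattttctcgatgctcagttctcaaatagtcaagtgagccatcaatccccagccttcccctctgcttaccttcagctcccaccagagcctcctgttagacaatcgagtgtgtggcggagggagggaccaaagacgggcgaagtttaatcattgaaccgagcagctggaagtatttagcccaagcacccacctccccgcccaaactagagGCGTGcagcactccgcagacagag
Pfkp, chr13:6648722-6649021, minus strand: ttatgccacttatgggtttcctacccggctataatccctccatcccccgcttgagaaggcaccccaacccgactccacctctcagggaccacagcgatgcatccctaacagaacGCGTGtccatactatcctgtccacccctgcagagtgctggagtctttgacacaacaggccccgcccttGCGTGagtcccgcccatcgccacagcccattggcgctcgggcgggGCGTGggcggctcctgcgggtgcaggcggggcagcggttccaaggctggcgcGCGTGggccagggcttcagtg
Pdk1, chr2:71872974-71873273, plus strand: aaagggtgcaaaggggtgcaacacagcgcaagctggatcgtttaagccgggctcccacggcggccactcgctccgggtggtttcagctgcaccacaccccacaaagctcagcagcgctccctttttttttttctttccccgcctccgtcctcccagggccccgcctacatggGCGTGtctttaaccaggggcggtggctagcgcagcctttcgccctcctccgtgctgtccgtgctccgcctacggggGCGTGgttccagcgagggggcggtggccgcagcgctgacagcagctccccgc
Ldha, chr7:46845554-46845853, plus strand: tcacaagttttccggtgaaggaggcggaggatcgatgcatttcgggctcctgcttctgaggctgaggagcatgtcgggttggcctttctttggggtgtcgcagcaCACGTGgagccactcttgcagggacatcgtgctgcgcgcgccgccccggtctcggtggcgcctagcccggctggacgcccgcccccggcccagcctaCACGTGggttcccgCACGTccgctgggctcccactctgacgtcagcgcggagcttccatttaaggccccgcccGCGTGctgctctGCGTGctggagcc
Among these promoters Vegfa had 0 matches at its upstream start and 2 at the start inside the gene. Adm and Pdk1 had 2 each, Hkdc1 had 1 and Pfkp had 4. Ldha had 7, a number reached by 0.301% of all promoters. Ldha and Pdk1 each have another start in the table, not printed, with 2 matches (a number reached by 20.6% of all promoters) and 0 matches. Of the 46 promoters listed for 33 of the 35 genes, 37 (80.4%) held at least 1 match, beside 43.8% of 32851 promoters of the same length. By role, matches were found in 22 of 29 promoters of glycolytic enzymes and in 8 of 9 promoters of the other hypoxia targets. A match describes these letters only and is not a site shown to bind HIF. The genes were chosen by name as genes of glycolysis and the hypoxia response, so their higher share is not a result of these arrays. Slc2a3 and Ndrg1 have no entry in the promoter table used.

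Taken by arm and day, the median of the other hypoxia targets was lower in the serum-free arm, while the glycolytic enzymes as a group did not separate the arms. For each gene the level on an array was set against the gene's mean over 12 arrays, and the median of these values was taken over a role. For the 9 other hypoxia targets the medians in serum-free Stella-GFP cells were -0.34, 0.09 and -0.08 at days 0, 3 and 10, and those in serum-free Dazl-GFP cells -0.42, -0.38 and -0.28. In FBS they were 0.01, 0.22 and 0.81 in Stella-GFP and 0.17, 0.12 and 0.13 in Dazl-GFP. The serum-free medians lay below the FBS medians at each day without overlap. At day 3 the same median over all genes tested was also lower in serum-free cells, at -0.04 and -0.14 against 0.05 and 0.12 in FBS. Over all genes the arms overlapped at day 0, and at day 10 the serum-free medians were the higher ones, at 0.08 and 0.12 against -0.02 and -0.01. For the 18 glycolytic enzymes the serum-free arrays spanned -0.17 to 0.20 and the FBS arrays -0.24 to 0.40, and the arms overlapped at each of the 3 days.

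**Figure D1:**
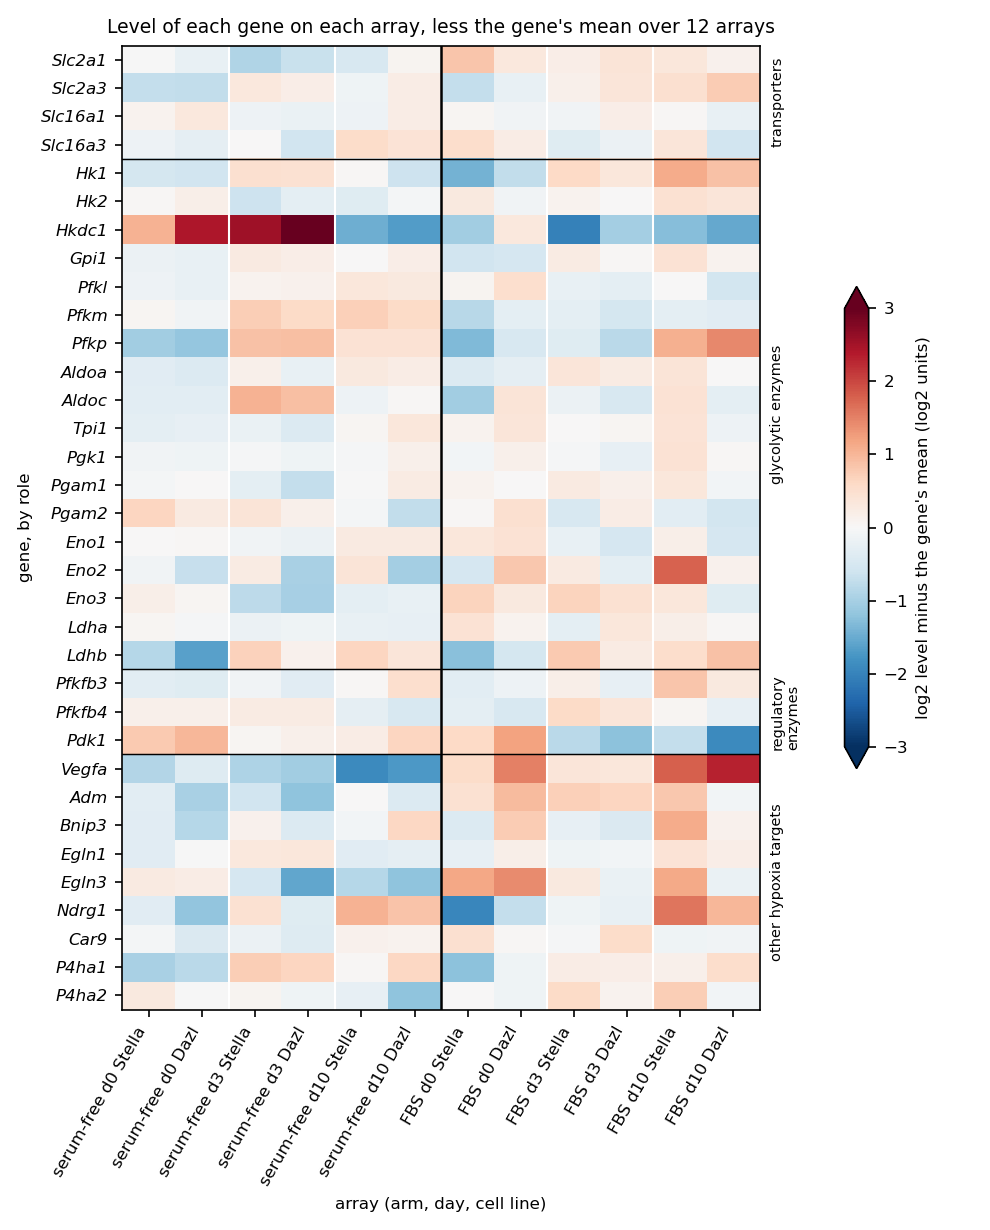
Level of each of the 34 genes on each of the 12 arrays, as the log2 level minus the gene's mean over all arrays, with genes in rows by role and arrays in columns (serum-free on the left, FBS on the right). Hkdc1 is high on the 4 serum-free arrays of days 0 and 3, and Vegfa is low on all 6 serum-free arrays.

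**Figure D2:**
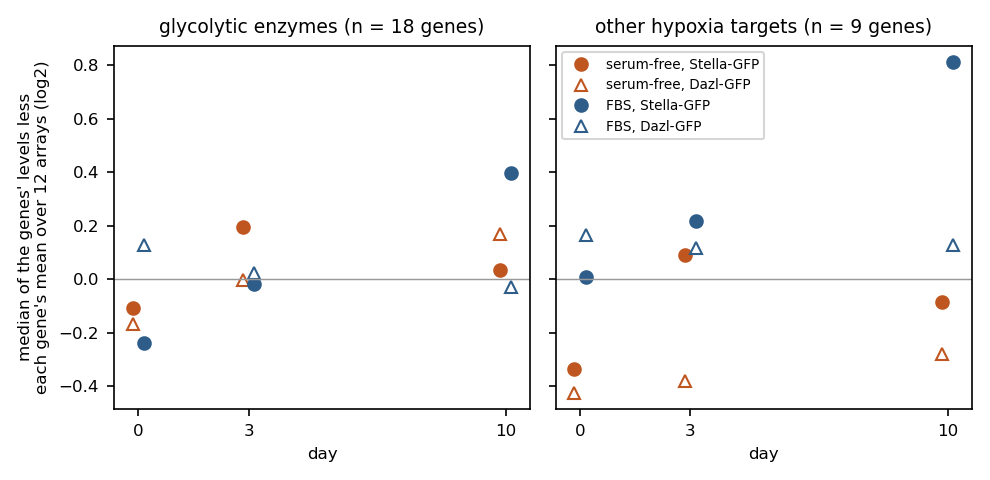
Median over the 18 glycolytic enzymes (left) and the 9 other hypoxia targets (right) of the log2 level minus each gene's mean, with 1 point per array by day, arm and line. Hypoxia target medians are lower in the serum-free arm at each day, from -0.42 to 0.09 against 0.01 to 0.81 in FBS. The median over all genes tested, not drawn, was also lower in the serum-free arm at day 3.

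Between the arms, the genes that differed most were Hkdc1, a hexokinase-family gene, which was higher in serum-free cells at day 3, and Vegfa, which was lower in serum-free cells at each day. At day 0 only Vegfa passed the test, lower in serum-free cells, which is 1 of 34 genes beside 1.83% of all genes tested (0.839% lower). At day 3 there were 8 of 34, beside 22.4% of all genes. Of these 3 were higher (8.94% of all genes), namely Hkdc1, Pfkp and Pfkm, and 5 were lower (13.5% of all genes), namely Adm, Eno3, Vegfa, Slc2a1 and Pgam1. The 8 of 34 at day 3 (23.5%) is near the share of all genes. At day 10 there were 4 of 34, beside 5.56% of all genes, with Pfkm higher (2.01% of all genes) and Vegfa, Hk1 and P4ha2 lower (3.55% of all genes).

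The median change of the 34 genes in the serum-free arm relative to FBS was -0.17 at day 0, -0.06 at day 3 and -0.22 at day 10, beside -0.01, -0.21 and 0.11 over all genes. For the 9 other hypoxia targets it was -0.50, -0.37 and -0.57, and 7, 5 and 8 of the 9 lay below 0. For the 18 glycolytic enzymes it was -0.12, 0.03 and -0.16. The arms did not overlap for 19 of the 34 genes at day 0, 22 at day 3 and 17 at day 10, which is 55.9%, 64.7% and 50% of them beside 49.6%, 66.1% and 55.5% of all genes. With the slide as a block, 0, 2 and 0 genes passed at days 0, 3 and 10. Leaving out the Dazl-GFP array of either arm at day 3 cut the 8 genes to 2, and leaving out the serum-free Dazl-GFP array at day 10 cut the 4 genes to 0. The direction of calls at day 10 was 0 higher and 2 lower with quantile normalization and 0 higher and 3 lower in the authors' deposited values, and at day 3 in those values it was 3 and 3.

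**Figure D3:**
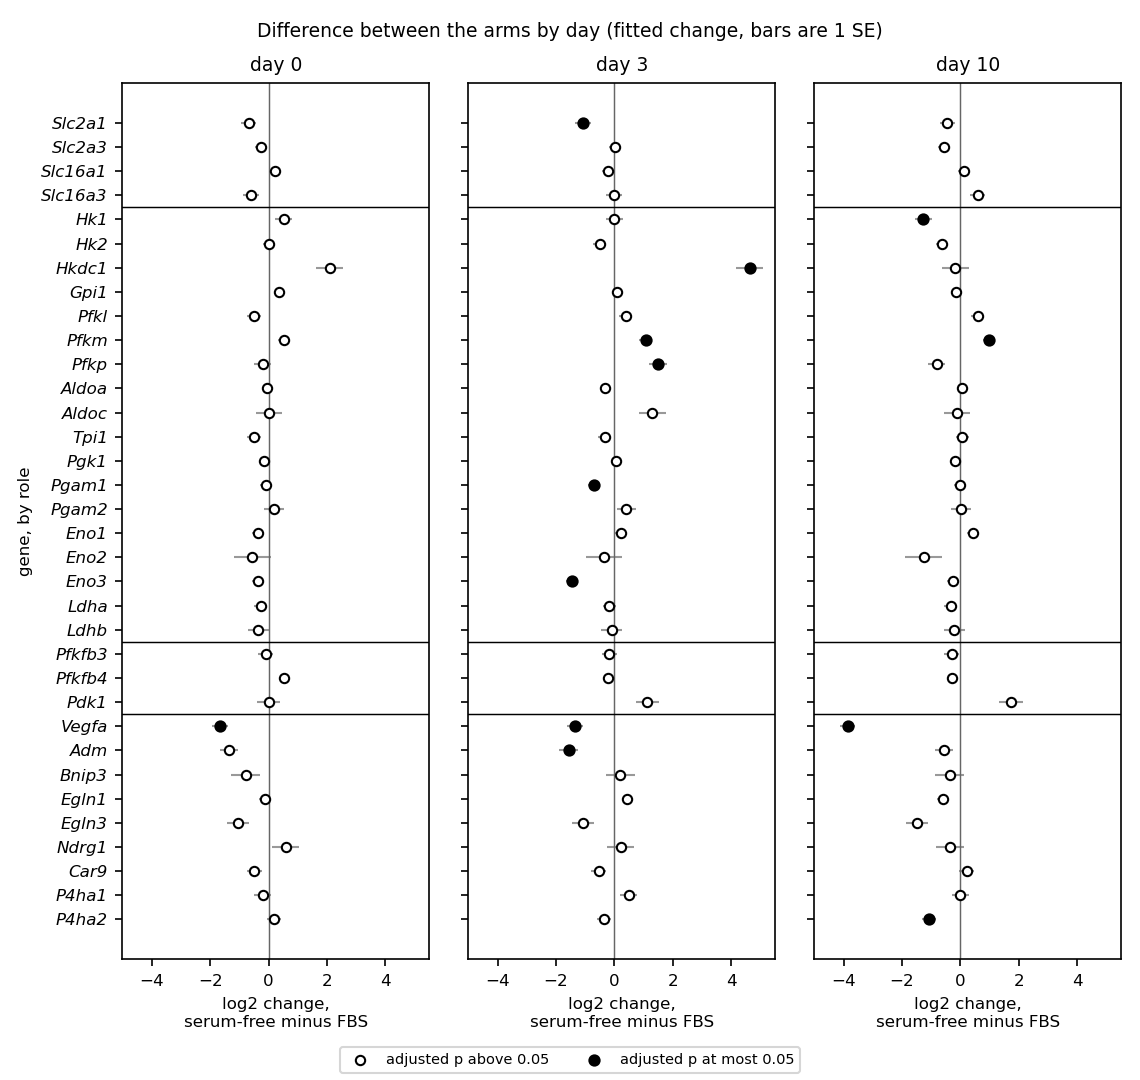
Fitted log2 change, serum-free minus FBS, of each of the 34 genes at days 0, 3 and 10, with bars of 1 SE and filled points for an adjusted p at most 0.05. Vegfa is filled at each day and Hkdc1 stands at 4.64 at day 3.

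Over time, several genes rose in both arms, with changes that were fitted against each arm's own day 0. In serum-free cells Pfkp, Ldhb, P4ha1 and Slc2a3 rose by day 3 and Eno3 fell, which is 5 of 34 genes beside 13.8% of all genes (5.91% higher and 7.85% lower). By day 10 Ldhb and Pfkp stood higher than at day 0 and Hkdc1 lower, 3 of 34 genes beside 5.18% of all genes (2.13% higher and 3.05% lower). In FBS cells Hk1, Ldhb, Pfkfb4, Slc2a3 and Gpi1 rose by day 3 and Pdk1 fell, 6 of 34 genes beside 11.9% of all genes (6.68% higher and 5.18% lower). By day 10 Ndrg1, Pfkp, Hk1, Ldhb, Slc2a3, Vegfa and Gpi1 stood higher and Pdk1 lower, 8 of 34 genes beside 13.0% of all genes, with 7.66% of all genes higher and 5.34% lower.

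The median change of the 34 genes from day 0 was 0.03 by day 3 and 0.26 by day 10 in serum-free cells, beside -0.04 and 0.12 over all genes. In FBS cells it was -0.02 by day 3 and 0.26 by day 10, beside 0.10 and -0.03. With the slide as a block 5 and 0 genes passed by days 3 and 10 in serum-free cells and 1 and 5 in FBS cells. The counts also rested on single arrays: without either serum-free day 3 array, or without the serum-free Dazl-GFP array at day 0, no gene passed by day 3 in serum-free cells. None passed by day 10 there without either serum-free array of day 0 or without the Dazl-GFP array of day 10. Likewise none passed by day 3 in FBS cells without either FBS day 3 array, and 2 passed by day 10 without the FBS Dazl-GFP array of that day. With quantile normalization the calls were 2 higher and 1 lower by day 3 in FBS cells and 1 higher and 1 lower by day 10 in serum-free cells, where the authors' deposited values gave 2 and 2.

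**Figure D4:**
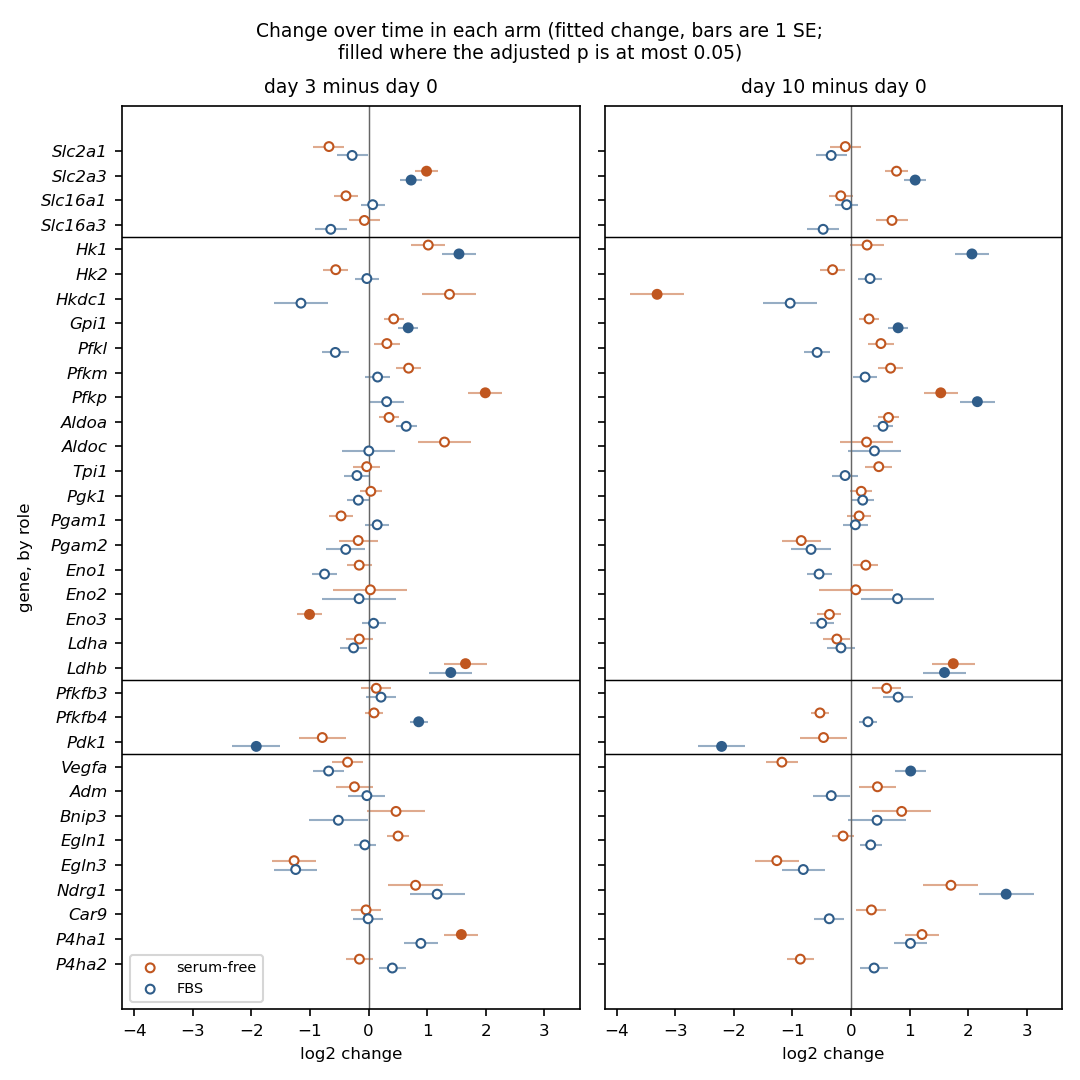
Fitted log2 change from day 0 of each of the 34 genes in the serum-free arm (orange) and the FBS arm (blue), at day 3 (left) and day 10 (right), with bars of 1 SE and filled points for an adjusted p at most 0.05. Ldhb is filled in both arms at both days, Hkdc1 stands at -3.31 in serum-free cells at day 10 and Pdk1 at -2.21 in FBS cells.

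Over these 7 comparisons 17 of the 34 genes passed at least once, beside 39.3% of all genes, and 17 passed in none. Between the arms 10 passed at least once, beside 26.2% of all genes. The 35 changes that passed all had the same sign in both lines, and in none of them did the groups compared overlap. With so few arrays per group a change that passes mostly meets both conditions, so this is no separate support. By their brightest probe, the genes that passed in no comparison were Slc16a1, Slc16a3, Hk2, Pfkl, Aldoa, Aldoc, Tpi1, Pgk1, Pgam2, Eno1, Eno2, Ldha, Pfkfb3, Bnip3, Egln1, Egln3 and Car9. That a gene did not pass does not show that it was unaltered.

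Of the transporters, both glucose carriers passed the test and neither lactate carrier did. Slc2a1, the widespread glucose carrier, stood at 4.84 and 5.09 on the serum-free Stella-GFP and Dazl-GFP arrays of day 3, against 5.95 and 6.15 in FBS. Both serum-free arrays were below both FBS arrays, a change of -1.08 (SE 0.26, adjusted p = 0.0273), and its changes of -0.69 at day 0 and -0.44 at day 10 did not pass. Slc2a3, the high-affinity carrier of neurons and early embryos, rose in both arms. In serum-free cells it stood at 5.23, 6.27 and 5.82 at days 0, 3 and 10 in Stella-GFP and at 5.21, 6.14 and 6.17 in Dazl-GFP. In FBS cells it stood at 5.22, 6.10 and 6.43 in Stella-GFP and at 5.73, 6.30 and 6.70 in Dazl-GFP, and all arrays of days 3 and 10 were above all arrays of day 0. By day 3 it was higher by 0.99 in serum-free cells (SE 0.19, adjusted p = 0.0194) and by 0.73 in FBS cells (SE 0.19, adjusted p = 0.05), and by day 10 by 1.10 in FBS cells (SE 0.19, adjusted p = 0.012). The call by day 3 in FBS cells was lost in all 12 omissions of an array (adjusted p = 0.054 to 0.204). Its 0.78 by day 10 in serum-free cells did not pass (adjusted p = 0.0643). A dimmer Slc2a3 probe, above background on all 12 arrays, gave 2.37 by day 3 in serum-free cells and passed (adjusted p = 0.0151). In FBS cells it gave 0.82 and 1.26 by days 3 and 10 and passed at neither (adjusted p = 0.233 and 0.0938). Between the arms at day 3 it gave 1.43 and passed (adjusted p = 0.0445), where the main probe gave 0.006 and did not. The monocarboxylate transporters that carry lactate, Slc16a1 and Slc16a3, ranged over 0.54 and 1.14 log2 units across the 12 arrays and passed nowhere.

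Hkdc1, a hexokinase-family gene, gave the highest fitted change of all genes tested between the arms at day 3. In serum-free cells it stood at -1.92, -0.43 and -4.44 at days 0, 3 and 10 in Stella-GFP and at -0.55, 0.71 and -4.65 in Dazl-GFP. The FBS levels were -4.01, -5.0 and -4.24 in Stella-GFP and -2.67, -3.99 and -4.51 in Dazl-GFP. The serum-free arrays of days 0 and 3 were thus above all FBS arrays, while those of day 10 lay among them. At day 3 the change was 4.64 (SE 0.46, adjusted p = 0.00204), a 24.9-fold higher level, kept without each of the 12 arrays in turn. With normexp background correction it was 2.94 and did not pass (adjusted p = 0.0888). Of the 35 changes that passed in the main fit, 28 did not pass with normexp. With extreme local backgrounds replaced, an alternative chosen after seeing the data, all 35 passed, that of Hkdc1 at day 3 included. The FBS Stella-GFP level of -5.0 at day 3 lay near the lowest level of any probe well above background on that array, -5.24, while in FBS Dazl-GFP that lowest level was -5.82. At day 0 the change of 2.10 did not pass (adjusted p = 0.0655), and at day 10 it was -0.17 (adjusted p = 0.844).

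By day 10 Hkdc1 in serum-free cells was 3.31 log2 units lower than at day 0 (change -3.31, SE 0.46, adjusted p = 0.0133), a 9.91-fold drop. That call was lost without either serum-free array of day 0 or without the Dazl-GFP array of day 10, with changes of -3.88 to -2.74 over the 12 omissions. Markers of primitive endoderm, the yolk sac lineage that arises beside the pluripotent cells, moved with it. All 10 of these markers were tested, and their summed level was 8.32 to 14.0 in serum-free cells at day 0, 9.23 to 20.2 at day 3 and 1.68 to 2.42 at day 10. In FBS cells it was 2.70 to 5.17, 2.16 to 2.82 and 2.27 to 2.52. Gata4 was not well above background on 1 array, and the other 9 were on all 12. At day 3 the arms differed for 7 of the 10, all higher in serum-free cells, beside 8.94% of all genes higher. Among the 7 were Cubn by 3.84, Col4a1 by 3.02 and Sox17 by 2.87. By day 10 in serum-free cells 5 of the 10 markers were lower than at day 0, among them Cubn at -4.76, Dab2 at -3.68 and Sox7 at -2.70. Of all genes 3.05% were lower there. The markers are the 10 of primitive endoderm. Their part in the result was not tested.

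Hk1, the common hexokinase of most tissues, rose with time in FBS cells and was lower in serum-free cells at day 10. In serum-free cells Hk1 stood at 3.09, 4.10 and 3.67 at days 0, 3 and 10 in Stella-GFP and at 3.04, 4.07 and 3.01 in Dazl-GFP. With FBS, the values were 2.21, 4.23 and 4.73 in Stella-GFP and 2.89, 3.95 and 4.50 in Dazl-GFP. All arrays of day 3 were above all of day 0, and at day 10 both FBS arrays were above both serum-free arrays. In FBS cells Hk1 rose by 1.54 by day 3 (SE 0.29, adjusted p = 0.0179) and by 2.06 by day 10 (SE 0.29, adjusted p = 0.00603). The call at day 10 was kept without each of the 12 arrays in turn. The arm difference at day 10 was -1.27 (SE 0.29, adjusted p = 0.0484), and 10 of the 12 omissions ended that call. Of its 4 other probes past the filter, 3 gave 1.58, 1.68 and 1.84 by day 10 in FBS cells and passed, and the other, above background on 8 arrays, gave 0.98 and did not. None of the 4 passed for the FBS rise by day 3 or for the arm difference at day 10. By day 3 in serum-free cells the main probe rose by 1.02 and did not pass. The same 3 other probes gave 1.42, 1.41 and 1.31 there and passed (adjusted p = 0.0299, 0.0375 and 0.0428), and the dimmest gave 0.72 and did not. Hk2, the inducible hexokinase counted among HIF targets, stayed between 4.34 and 5.40 on all arrays and passed nowhere. Gpi1, which converts glucose phosphate to fructose phosphate, rose in FBS cells by 0.68 by day 3 (adjusted p = 0.0452) and by 0.80 by day 10 (adjusted p = 0.0241). Its other probe gave 0.59 and -0.03 and passed at neither day, and the day 3 call of the main probe was lost in all 12 omissions of an array (adjusted p = 0.052 to 0.234).

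Among the isoforms of phosphofructokinase, the platelet form Pfkp moved most. In serum-free cells Pfkp stood at 1.55, 3.48 and 3.02 at days 0, 3 and 10 in Stella-GFP and at 1.44, 3.49 and 3.03 in Dazl-GFP. FBS cells had levels of 1.26, 2.22 and 3.65 in Stella-GFP and 2.12, 1.77 and 4.04 in Dazl-GFP. The serum-free lines were close to each other at each day, and by day 10 all arrays of both arms were above all arrays of day 0. In serum-free cells Pfkp was higher than at day 0 by 1.99 by day 3 (SE 0.29, adjusted p = 0.00855) and by 1.53 by day 10 (SE 0.29, adjusted p = 0.0313). For Pfkp some omissions of an array ended each of these calls, with changes of 1.85 to 2.13 and 1.39 to 1.67. In FBS cells its change was 0.31 by day 3 (adjusted p = 0.529) and 2.16 by day 10 (SE 0.29, adjusted p = 0.00557), a call kept without each of the 12 arrays in turn. At day 3 it was thus higher in serum-free than in FBS cells, by 1.49 (SE 0.29, adjusted p = 0.0141), and another probe gave 2.28 (adjusted p = 0.0179) while the third gave 0.15 (adjusted p = 0.545). For the change by day 3 in serum-free cells these probes gave 2.485 (adjusted p = 0.0208) and 0.54 (adjusted p = 0.0855). By day 10 there they gave 1.87 and 0.77 and neither passed, while in FBS cells both passed, at 2.01 and 1.31. The main probe's arm difference at day 3 was 1.15 to 1.83 over the 12 omissions, and some of them ended its call.

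Pfkm, the muscle form, was higher in serum-free cells at the later days. At day 3 it stood at 3.54 and 3.40 in serum-free Stella-GFP and Dazl-GFP cells, against 2.52 and 2.29 in FBS, and at day 10 at 3.53 and 3.39 against 2.51 and 2.47. At day 0 the values were 2.87 and 2.71 in serum-free cells against 1.99 and 2.52 in FBS cells, so the arms did not overlap at any day. The change was 1.06 at day 3 (SE 0.21, adjusted p = 0.0143) and 0.97 at day 10 (SE 0.21, adjusted p = 0.0433), and 10 of the 12 omissions ended the call at day 10. Pfkl, the liver form, differed by 0.38 at day 3 and 0.59 at day 10 and passed nowhere. Of the enzymes that make and break the activator of phosphofructokinase, Pfkfb4 rose in FBS cells by 0.85 by day 3 (SE 0.15, adjusted p = 0.0163) and Pfkfb3 passed nowhere.

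In the steps between aldolase and enolase few genes passed at their brightest probe. Aldoa, Tpi1 and Pgk1, the main aldolase, triose phosphate isomerase and phosphoglycerate kinase, ranged over 0.81, 0.82 and 0.67 log2 units across the 12 arrays. Aldoc, the brain aldolase, stood at 2.63 and 2.50 in serum-free cells at day 3 against 1.43 and 1.11 in FBS, a change of 1.30 that did not pass (adjusted p = 0.0744). A dimmer Aldoc probe, above background on all 12 arrays, gave 1.33 by day 3 in serum-free cells and passed (adjusted p = 0.0158). In FBS cells it gave 1.28 and 1.82 by days 3 and 10 and passed (adjusted p = 0.0182 and 0.00542). The main probe gave 1.29, 0.003 and 0.40 in these comparisons and passed in none. Pgam1, a phosphoglycerate mutase, stood at 6.63 and 6.20 in serum-free cells at day 3 against 7.17 and 7.06 in FBS. Its change of -0.71 passed narrowly (SE 0.21, adjusted p = 0.0475), and 10 of the 12 omissions ended the call. Its muscle form Pgam2 passed nowhere.

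Eno3, the muscle enolase, was the enolase that fell. In serum-free cells it stood at 1.95, 0.99 and 1.48 at days 0, 3 and 10 in Stella-GFP and at 1.85, 0.79 and 1.57 in Dazl-GFP. In FBS cells it stood at 2.45, 2.46 and 2.12 in Stella-GFP and at 2.09, 2.25 and 1.41 in Dazl-GFP. Both serum-free arrays of day 3 were below all other arrays. The arm difference at day 3 was -1.46 (SE 0.21, adjusted p = 0.00514), kept without each of the 12 arrays in turn. The change from day 0 in serum-free cells was -1.01 (SE 0.21, adjusted p = 0.0226). Some omissions of an array ended the latter call, with changes of -1.10 to -0.92. Eno1, the ubiquitous form, passed nowhere, nor did the neuronal form Eno2, whose arm difference of -1.26 at day 10 had an adjusted p of 0.259 and whose FBS values there were -0.77 in Stella-GFP and -2.40 in Dazl-GFP.

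At the end of the pathway Ldhb rose in both arms and Ldha passed nowhere. Ldhb, the heart form, stood at 5.09, 6.63 and 6.59 at days 0, 3 and 10 in serum-free Stella-GFP cells and at 4.31, 6.08 and 6.31 in serum-free Dazl-GFP cells. The FBS levels were 4.68, 6.72 and 6.48 in Stella-GFP and 5.43, 6.19 and 6.82 in Dazl-GFP. All arrays of days 3 and 10 in both arms were above all arrays of day 0. Ldhb rose in serum-free cells by 1.65 by day 3 (SE 0.37, adjusted p = 0.0285) and 1.74 by day 10 (SE 0.37, adjusted p = 0.042). In FBS cells it rose by 1.40 by day 3 (SE 0.37, adjusted p = 0.0489) and 1.59 by day 10 (SE 0.37, adjusted p = 0.0309). Single omissions of an array ended these calls in 4, 10, 11 and 5 of 12 cases, in the order given, with rises of 0.85 to 2.15 throughout. Its arm differences were -0.35 at day 0, -0.10 at day 3 and -0.20 at day 10 and none passed. Ldha, the muscle form and a classical HIF target whose promoter is printed above, stood between 7.12 and 7.86 on all arrays, with changes of -0.34 to -0.17 between the arms and none past the threshold.

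Pdk1, the kinase that turns off pyruvate dehydrogenase and so keeps pyruvate out of the mitochondrion, fell in FBS cells. Levels in serum-free cells were 3.12, 2.38 and 2.54 at days 0, 3 and 10 in Stella-GFP and 3.33, 2.48 and 2.96 in Dazl-GFP. Levels in FBS cells were 2.92, 1.52 and 1.62 in Stella-GFP and 3.52, 1.09 and 0.41 in Dazl-GFP. At days 3 and 10 the serum-free arrays were above the FBS arrays, and at day 0 the arms overlapped. In FBS cells the change was -1.92 by day 3 (SE 0.41, adjusted p = 0.0256) and -2.21 by day 10 (SE 0.41, adjusted p = 0.0145), a 4.62-fold drop, with -1.20 and -1.43 at its other probe, neither of which passed. Without the FBS Dazl-GFP array of day 0 or of day 10 the day 10 change did not pass (-1.82 and -1.52, adjusted p = 0.0667 and 0.0659), and without the Stella-GFP array of day 10 it was -2.90. The day 3 call was lost without either FBS array of day 3 or the Dazl-GFP array of day 0, with changes of -2.14, -1.69 and -1.53 for Stella-GFP and Dazl-GFP of day 3 and Dazl-GFP of day 0. The arm differences of 1.13 at day 3 (adjusted p = 0.083) and 1.74 at day 10 (adjusted p = 0.0525) did not pass.

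**Figure D5:**
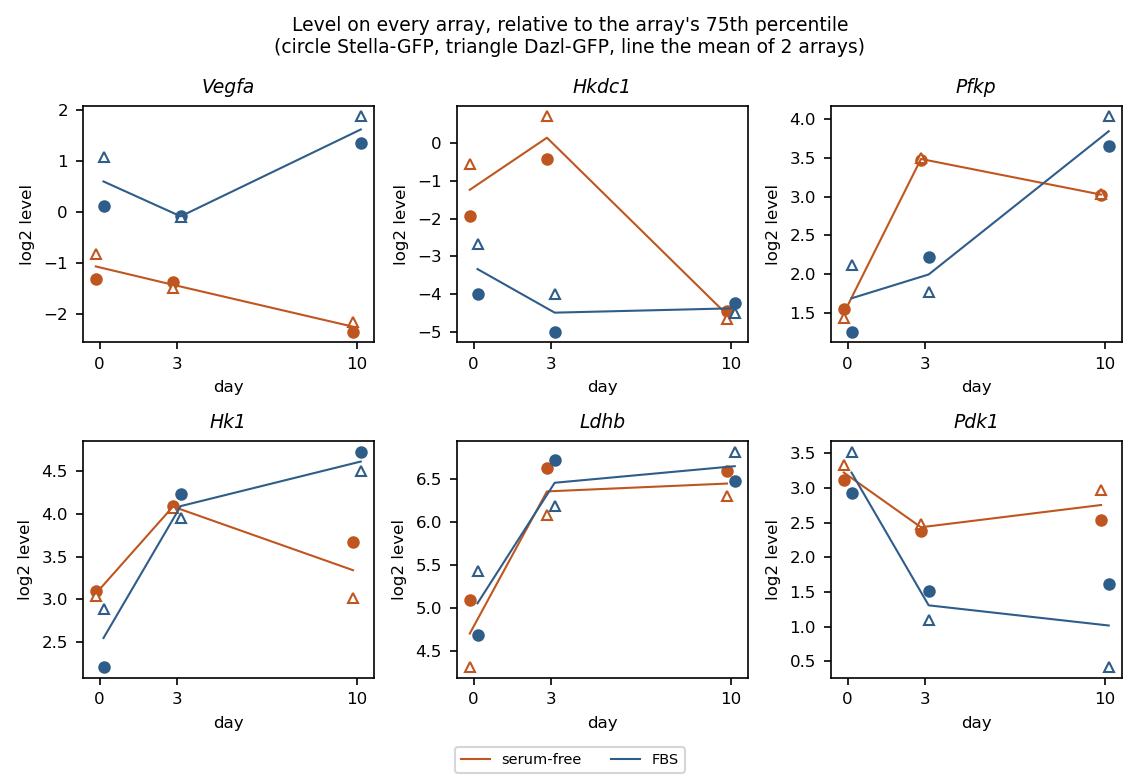
Log2 level relative to the array's 75th percentile of Vegfa, Hkdc1, Pfkp, Hk1, Ldhb and Pdk1 on all 12 arrays by day, in serum-free (orange) and FBS cells (blue), with circles for Stella-GFP, triangles for Dazl-GFP and lines through the means of 2 arrays. The arms are apart for Vegfa at each day, for Hkdc1 at days 0 and 3 and for Pdk1 and Pfkp at days 3 and 10, and overlap for Ldhb at each day.

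Vegfa, the growth factor that drives blood vessel sprouting, was the only one of the 34 to pass the test between the arms at every day. In serum-free cells it stood at -1.31, -1.37 and -2.34 at days 0, 3 and 10 in Stella-GFP and at -0.81, -1.48 and -2.15 in Dazl-GFP. With FBS, the values were 0.11, -0.08 and 1.36 in Stella-GFP and 1.09, -0.09 and 1.87 in Dazl-GFP. Each serum-free array was below each FBS array. The difference was -1.66 at day 0 (SE 0.27, adjusted p = 0.0361), -1.34 at day 3 (SE 0.27, adjusted p = 0.0148) and -3.86 at day 10 (SE 0.27, adjusted p = 0.00414), a 14.5-fold lower level at the last. Both other Vegfa probes passed at each day, with -1.43 and -1.65 at day 0, -1.27 and -1.04 at day 3, and -3.14 and -2.82 at day 10.

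Over the 12 omissions of an array the Vegfa difference at day 10 ranged from -3.96 to -3.76, and only without the serum-free Dazl-GFP array of that day did it miss the threshold (adjusted p = 0.0512). At day 0 the call held in 1 of the 12 omissions, that of the FBS Stella-GFP array of that day, with adjusted p of 0.0422 to 0.196 over all 12. At day 3 the Vegfa difference ranged from -1.615 to -1.06 over the 12 omissions, and some of them ended the call. With the slide as a block the day 10 difference was -4.42 with an adjusted p of 0.311. At days 0 and 10 the arms never shared a slide. In serum-free cells the change of Vegfa by day 10 was -1.18 (adjusted p = 0.051). Its other probes gave -0.98, which passed (adjusted p = 0.0449), and -0.60, which did not (adjusted p = 0.233). In FBS cells Vegfa was higher by day 10 than at day 0, by 1.02 (SE 0.27, adjusted p = 0.0476), a call that 11 of the 12 omissions ended and that neither other probe gave.

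Several targets of ATF4, the transcription factor of the integrated stress response, also differed between the arms. All 10 listed were tested, and 9 or 10 of them were well above background on each array. Of these 2 were lower in serum-free cells at day 0, 5 at day 3 and 7 at day 10, and none was higher. Of all genes 0.839%, 13.5% and 3.55% were lower at these days. The summed level of the 10 ATF4 targets was 125 to 136 in serum-free cells at day 0, 226 to 245 at day 3 and 179 to 181 at day 10. In FBS cells it was 128 to 136, 171 to 216 and 251 to 381. The sum was thus higher in serum-free cells at day 3 and lower at day 10. By contrast, the median change of the 10 targets was -0.82, -1.10 and -3.62 at days 0, 3 and 10. Over all genes it was -0.01, -0.21 and 0.11. At these days 7, 8 and 10 of the 10 targets lay below 0. At day 10 the change was -4.87 for Atf3, -4.38 for Chac1 and -4.36 for Nupr1. Their part in the result was not tested.

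Of the other secreted or signalling targets, Adm, which encodes the vessel-dilating peptide adrenomedullin, was lower in serum-free cells at day 3. In serum-free cells Adm stood at -2.75, -3.01 and -2.41 at days 0, 3 and 10 in Stella-GFP and at -3.41, -3.64 and -2.84 in Dazl-GFP. FBS cells had levels of -1.97, -1.72 and -1.62 in Stella-GFP and -1.49, -1.79 and -2.51 in Dazl-GFP. The arms did not overlap at days 0 and 3 but did at day 10, where the FBS Dazl-GFP array was low. The change was -1.57 at day 3 (SE 0.32, adjusted p = 0.0153), while -1.35 at day 0 (adjusted p = 0.0736) and -0.57 at day 10 (adjusted p = 0.31) did not pass. Macrophage markers also differed at day 3, with summed levels of 0.922 to 1.25 in serum-free cells against 5.24 to 9.08 in FBS cells. Of 8 tested markers 5 were lower, and 6 of the 8 were well above background on the serum-free arrays. The fibroblast markers given above differed as well, with 14 of 18 lower and 1 higher. Of all genes 13.5% were lower and 8.94% higher at day 3. The part of either cell type in the day 3 differences was not tested.

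Egln1 and Egln3, the prolyl hydroxylases that mark HIF for destruction and are themselves HIF targets, passed nowhere. Egln3 was below its FBS counterpart in both lines at each day, with changes of -1.04, -1.07 and -1.50 (adjusted p = 0.162, 0.0747 and 0.0624). Ndrg1, a stress-response gene, rose by day 10 in FBS cells. In serum-free cells Ndrg1 stood at 0.70, 1.49 and 2.07 at days 0, 3 and 10 in Stella-GFP and at -0.14, 0.67 and 1.90 in Dazl-GFP. In FBS cells it stood at -0.92, 0.92 and 2.65 in Stella-GFP and at 0.32, 0.81 and 2.04 in Dazl-GFP. All arrays of day 10 were above all of day 0. The change by day 10 was 1.70 in serum-free cells, which did not pass (adjusted p = 0.0824), and 2.65 in FBS cells (SE 0.47, adjusted p = 0.0127), a 6.26-fold rise. Without the FBS Stella-GFP array of day 0 the FBS change was 1.77 and without the Dazl-GFP array of that day 3.52. Without the Stella-GFP or the Dazl-GFP array of day 10 it did not pass (2.42 and 2.88, adjusted p = 0.0756 and 0.0625).

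P4ha1 and P4ha2 encode the catalytic subunits of the enzyme that hydroxylates collagen prolines. P4ha1 stood at 1.13 and 1.03 in serum-free cells at day 3 against -0.59 and -0.42 at day 0, a rise of 1.58 (SE 0.29, adjusted p = 0.0164) that its other probe also gave, at 1.41 (adjusted p = 0.0183). P4ha2 stood at 1.89, 1.69 and 1.35 in serum-free Stella-GFP cells at days 0, 3 and 10 and at 1.59, 1.47 and 0.40 in serum-free Dazl-GFP cells. The FBS levels were 1.61, 2.17 and 2.35 in Stella-GFP and 1.47, 1.72 and 1.53 in Dazl-GFP. Only at days 3 and 10 were the serum-free arrays below the FBS arrays of the same day, and the difference at day 10 was -1.06 (SE 0.23, adjusted p = 0.0452), which 10 of the 12 omissions ended. Bnip3, a receptor for the removal of mitochondria, and Car9, a membrane carbonic anhydrase often used as a hypoxia marker, passed nowhere, and Car9 stayed between -2.45 and -1.48 on all arrays.

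In the rest of the glycolytic pathway the genes that passed between the arms were fructose bisphosphatases. Of 17 further genes of glycolysis and glycogen entry tested, none passed between the arms at day 0 by limma, against 4 with an unadjusted p under 0.05. At day 3 Fbp1 alone passed, 1 of 17 beside 22.4% of all genes. At day 10 Fbp1 was higher and Fbp2 lower, 2 of 17 beside 5.56% of all genes. Unadjusted p-values under 0.05 were found for 5 and 6 of the 17 at these days. Fbp1 and Fbp2 are the liver and muscle forms of that enzyme of glucose synthesis, which opposes phosphofructokinase. Fbp1 was higher in serum-free cells by 2.84 at day 3 (SE 0.33, adjusted p = 0.00319) and by 1.66 at day 10 (SE 0.33, adjusted p = 0.0346). Fbp2 rose by 1.62 by day 3 in serum-free cells, and by 2.15 by day 3 and 2.90 by day 10 in FBS cells. Pgm1, which links glucose phosphate to glycogen, rose by 1.16 and 1.08 by days 3 and 10 in serum-free cells and by 0.70 by day 10 in FBS cells. Over time 5 and 1 of the 17 rose in serum-free cells by days 3 and 10 and 2 and 3 in FBS cells, and none fell. Of all genes 5.91% and 2.13% rose in serum-free cells and 6.68% and 7.66% in FBS cells.

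Of 13 genes for the entry of pyruvate into the mitochondrion, 1 passed between the arms, Pcx, the pyruvate carboxylase, at -0.90 at day 3 (adjusted p = 0.014), where 22.4% of all genes passed. Pdp1, the phosphatase that opposes Pdk1 by turning pyruvate dehydrogenase back on, fell from day 0 by day 3 in both arms, by 1.28 in serum-free cells (adjusted p = 0.0247) and by 1.18 in FBS cells (adjusted p = 0.0334). By day 10 it was 1.04 lower in FBS cells (change -1.04, adjusted p = 0.0457). In the pentose phosphate pathway, the side branch that makes NADPH and ribose, 1 of 6 genes passed between the arms, Pgls at -0.83 at day 3 (22.4% of all genes), and Rpe was 1.14 higher by day 10 in FBS cells.

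Among 12 genes that set the activity of HIF, the arms differed for 1, Elob, a partner of the VHL ubiquitin ligase, at -0.57 at day 3 (adjusted p = 0.0311), where 22.4% of all genes passed. Hif1a, the oxygen-regulated subunit itself, fell by 0.97 by day 3 in serum-free cells (adjusted p = 0.039), and Arnt2, a partner of the alpha subunits in neural cells, fell by 1.07 there and by 1.31 by day 3 and 1.14 by day 10 in FBS cells. Of 27 further hypoxia targets, 2 were lower in serum-free cells at day 0, 9 at day 3 and 7 at day 10, and 2 were higher, both at day 3. Of all genes 0.839%, 13.5% and 3.55% were lower at these days, and 8.94% were higher at day 3. The lower ones included Lox, which crosslinks collagen (-2.61 at day 3), Angptl4, an inhibitor of lipoprotein lipase (-2.15 at day 3), and Stc2, a secreted glycoprotein (-2.25, -1.37 and -2.49 at days 0, 3 and 10). The higher ones were Plod2, a collagen lysyl hydroxylase, at 1.23 and the histone demethylase Kdm3a at 0.90. Their median change was -0.33, -0.64 and -0.37 at days 0, 3 and 10, beside -0.01, -0.21 and 0.11 over all genes. Several of these genes are also expressed by fibroblasts, whose markers differed at day 3 as given above, and the part of feeder RNA was not tested.

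Whether the change over time itself differed between the arms was tested as an interaction. By limma none of the 34 genes passed for the change by day 3 (1.56% of all genes did) or by day 10 (0.066% of all genes), although 5 and 9 had an unadjusted p under 0.05. For the change by day 3 these were Hkdc1 (2.53, adjusted p = 0.0839), Pfkp (1.68, adjusted p = 0.0787), Eno3 (-1.09, adjusted p = 0.0882), Pfkl and Pfkfb4. For the change by day 10 Vegfa had -2.20 (adjusted p = 0.0687), Hk1 -1.79 (adjusted p = 0.113), Pdk1 1.74 (adjusted p = 0.192) and Hkdc1 -2.27 (adjusted p = 0.166). A gene that passed over time in only 1 arm is therefore not shown to have changed differently there.

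Between the cell lines none of the 34 genes passed, beside 2.7% of all genes, and 3 had an unadjusted p under 0.05. These were Hkdc1 at 0.73 (adjusted p = 0.223), Egln3 at -0.51 (adjusted p = 0.288) and P4ha2 at -0.48 (adjusted p = 0.122), each as Dazl-GFP minus Stella-GFP. Over the 34 genes the changes between the lines spanned -0.69 to 0.73.

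Within a slide only single arrays could be set against each other, and these arrays are part of the fits above. On the slide that held both arms at day 3, the serum-free Dazl-GFP array minus the FBS Stella-GFP array gave 5.71 for Hkdc1 and -1.40 for Vegfa, and the median over the 34 genes was -0.18, beside -0.06 in the fit. Ldha differed by 0.17 there, against -0.17 in the fit.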

How the data were processed

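Total RNA of 12 cultures was extracted with TRIZOL, labelled with Cy3 and hybridised to one-colour Agilent arrays, per the labels' protocols. The scanner intensity files were deposited by the authors from Feature Extraction 9.1.3.1, per the file headers, and the processed intensity used here is background-subtracted. The authors' deposited table, used as an alternative, holds each background-subtracted signal as a ratio to the array's median (its medians were 1.00001 to 1.00028), a step inferred from the values. No genome build is given in the sources used here. The other columns used name probes and mark spots.

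For each array, control and outlier-flagged spots were left out, spots of a probe were averaged, and the log2 processed signal was set relative to the array's 75th percentile. A gene was represented by its brightest probe and tested if well above background on at least 2 arrays. Groups were fitted with limma 3.58.1 (R 4.3.3) on all 12 arrays with cell line as a block, leaving 5 residual degrees of freedom, at a Benjamini-Hochberg adjusted p of 0.05. The replicate number is the cell line, and the line differences of 15 pairs of groups correlated at -0.05 to 0.57 (median 0.154). Arrays lay on 3 slides. Alternatives changed the background correction, normalization, filter, probe rule, block, variance trend and arrays used. Tables and plots were made with pandas 2.3.3, numpy 2.4.6 and matplotlib 3.10.9.

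The genes, marker lists and pathway lists were chosen with earlier results of these data known. Each of the 34 genes that passed is named, with per-array values for up to 5 with the largest changes in each comparison of the arms and in each arm's change by day 10. Of other lists up to 4 genes past the threshold with the largest changes in a comparison are named. Values of other genes were chosen after they were seen. A gene that the rule would name is not reported here.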

Additional observations from a re-analysis of the deposited data

How the results depend on the processing

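No change of the 35 that passed was reversed by any alternative. Of the 35, 25 still passed with quantile normalization, 7 with normexp background correction, 30 in the authors' deposited table, 25 without a filter on dim genes, 29 with the mean over a gene's probes, 27 with no replicate block (cell line left out), 13 with the slide as a block, and 35 each with genes well above background on all 12 arrays and with a variance trend. In normexp, 10 spots of 1 array have extreme local backgrounds, and with those replaced, an alternative chosen after seeing the data, 35 of 35 passed. Between the arms at day 0 (1 gene), 0 genes passed with normexp, without a filter, with no replicate block and with the slide as a block, 2 with the repaired normexp, and 3 each with genes above background on all arrays and with a variance trend. At day 3 (8 genes) there were 0 with normexp and 2 with the slide as a block. At day 10 (4 genes) there were 2 with quantile normalization and with no replicate block, 1 with normexp and without a filter, 0 with the slide as a block and 7 with the repaired normexp. By day 3 in serum-free cells (5 genes) there were 1 with normexp, 10 with it repaired, 8 with genes above background on all arrays and 9 with a trend, and by day 10 (3 genes) 0 with normexp and with the slide as a block, 8 with normexp repaired, 6 with genes above background on all arrays and 9 with a trend. By day 3 in FBS cells (6 genes) there were 3 with quantile normalization, without a filter, with the mean of probes and with no replicate block, 0 with normexp, 1 with the slide as a block, 14 with normexp repaired and 10 with a trend, and by day 10 (8 genes) 5 each with quantile normalization, normexp and the slide as a block. For the interaction by day 3 (0 genes) 3 passed with normexp repaired and with a trend and 2 with genes above background on all arrays, and by day 10 (0 genes) 2, 2 and 1 passed in the same order and 1 in the authors' deposited table. Leaving out single arrays gave 0 to 1, 2 to 8 and 0 to 5 genes between the arms at days 0, 3 and 10. It gave 0 to 9 and 0 to 8 by days 3 and 10 in serum-free cells, 0 to 5 and 2 to 10 in FBS cells, 0 to 2 and 0 to 0 for the interactions, and 0 to 0 between the lines. The repaired normexp, the filters and the trend changed the number of genes tested or the shared variance, and omissions and the slide block left fewer degrees of freedom; other causes were not tested. Hkdc1 at day 3 missed the threshold with normexp (2.94, adjusted p = 0.0888) but passed with normexp repaired. With the slide as a block it also passed (4.89, adjusted p = 0.0357). The 34 probes were well above background on all arrays, but Hkdc1 in FBS Stella-GFP cells at day 3 lay close to the dimmest such probes, where the background correction moves its fold change.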
